A study of Rattus norvegicus with 9 samples.

Results

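Microglia and macrophage genes were followed in retinal progenitor cells (RPCs) made from rat embryonic stem cells (rESCs) and in cells taken from the newborn rat retina. The set holds 10 genes that mark these immune cells (C1qa, C1qb, Cx3cr1, Aif1, Tyrobp, Ctss, Laptm5, Csf1r, Fcer1g and Cd53), chosen by name, and every probe set that the platform annotation gives to 1 of them was used. These were 12 probe sets of 31042 on the array, and 10 genes of 14217. Aif1 and Laptm5 had 2 probe sets each, and the other 8 genes had 1.

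Total RNA of 9 samples was hybridized to Affymetrix Rat Genome 230 2.0 arrays, 1 array per sample and 3 samples per group. Both rESC-derived groups came from a single rESC line of DA rats, DA8-16, which had been grown on mouse feeder cells before differentiation. Aggregates were formed in serum-free medium with Matrigel and the Wnt inhibitor IWR-1e, serum was present from day 8, and both groups were harvested on day 16. The rESC-RPC2 aggregates were dissociated for adherent culture on day 14. The rESC-RPC1 aggregates were dissociated earlier, on day 10, and their medium was changed to N2 with serum on day 14. The third group, P-RPC, was dissociated retinal tissue of newborn SD rats (postnatal day 1). It was taken apart with papain, kept on ice and neither cultured nor, as far as the methods say, sorted. How many animals went into each P-RPC sample is not given in the sources used here. Against P-RPC, the strain, the step from tissue to culture and the cell type change together and cannot be told apart. Between rESC-RPC2 and rESC-RPC1, the medium changes together with the start of adherent culture.

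Microglia are the resident macrophages of the retina and brain. They descend from myeloid precursors of the embryonic yolk sac and enter the neural tissue from outside. They depend on the receptor Csf1r, answer to the neuronal ligand fractalkine through Cx3cr1, make the C1q that tags synapses and dying cells, and degrade what they engulf in lysosomes. Their genes are switched on by PU.1, an ETS factor of blood cells, together with IRF and RUNX factors.

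Because PU.1 binds a core of GAGGAA, the promoters of the members were searched for it, from 250 bases before the start of the gene to 50 after it, in RefSeq sequence of the build GRCr8. A promoter was found for 7 of the 10 genes (C1qa, C1qb, Cx3cr1, Ctss, Laptm5, Csf1r and Cd53). The core, read on either strand, was in 5 of these 7 promoters and in 27.6% of 33469 rat promoters of the same length. The 60 bases around the core nearest the start are shown for these 5 genes, in the direction of the gene. Capitals mark the core, which in all 5 runs on the opposite strand and so reads TTCCTC.
Ctss, chr2:185775336-185775395 (+): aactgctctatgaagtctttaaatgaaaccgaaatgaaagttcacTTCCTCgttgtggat
Cd53, chr2:197087908-197087967 (-): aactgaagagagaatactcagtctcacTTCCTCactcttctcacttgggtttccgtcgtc
Laptm5, chr5:148371790-148371849 (+): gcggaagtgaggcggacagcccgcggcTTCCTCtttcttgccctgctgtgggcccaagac
C1qb, chr5:154407885-154407944 (-): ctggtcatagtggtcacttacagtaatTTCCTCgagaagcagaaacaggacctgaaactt
Csf1r, chr18:56834257-56834316 (+): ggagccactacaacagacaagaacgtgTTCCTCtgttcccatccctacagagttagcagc
Counting the base before the start as -1, the core ran from -15 to -10 in Ctss, from -44 to -39 in Cd53, from -63 to -58 in Laptm5, from -90 to -85 in C1qb and from -95 to -90 in Csf1r. C1qb and Csf1r held a core farther upstream as well. The RUNX core TGTGGT, on either strand, was in the promoters of C1qa and Cx3cr1 and in 17.3% of all promoters. An ETS-IRF composite (GGAA, any pair of bases, then GAAA), on either strand, was in 0 of the 7 and in 2.94% of all promoters. A match of letters is a description of the sequence and does not show binding.

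Signals are MAS 5.0 values on a linear scale, and the detection threshold used here was 123, the median of all values on all arrays. A gene was tested where a probe set of it was at or above this threshold on at least 3 of the 9 arrays. It was called where limma's Benjamini-Hochberg adjusted p was under 0.05 over all 9956 genes tested and the log2 fold change was at least 1 in size. Where all 3 arrays of a group were under the threshold, the fold is a lower bound, with the threshold in place of these signals. The log2 fold change of the fit then depends on values near the background. An adjusted p beside a bound belongs to this fit and not to the bound. Array by array, 15095 to 15752 probe sets were at or above the threshold. P-RPC replicate 1 stood apart by lens genes: all 17 on the array had at least 4 times the signal of both other P-RPC replicates, as for crystallin Cryaa with 21855, against 825 and 2804. With the same genes tested, the member calls numbered 6, 6 and 1 in the 3 comparisons with or without this array.

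Genes of the set were seen in P-RPC and in neither kind of rESC-RPCs. In rESC-RPC2 and in rESC-RPC1, 0 of the 12 probe sets reached the threshold on any array, while in P-RPC 7 of the 10 genes did so on at least 2 of the 3 arrays. The signal summed over the 10 genes was 246 to 356 in rESC-RPC2, 309 to 399 in rESC-RPC1 and 2341 to 2757 in P-RPC. P-RPC replicate 1, with its lens genes, had a sum of 2559 that lay between those of the other P-RPC replicates. In such bulk RNA, fewer cells of a type and less RNA per cell cannot be told apart.

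**Figure D1:**
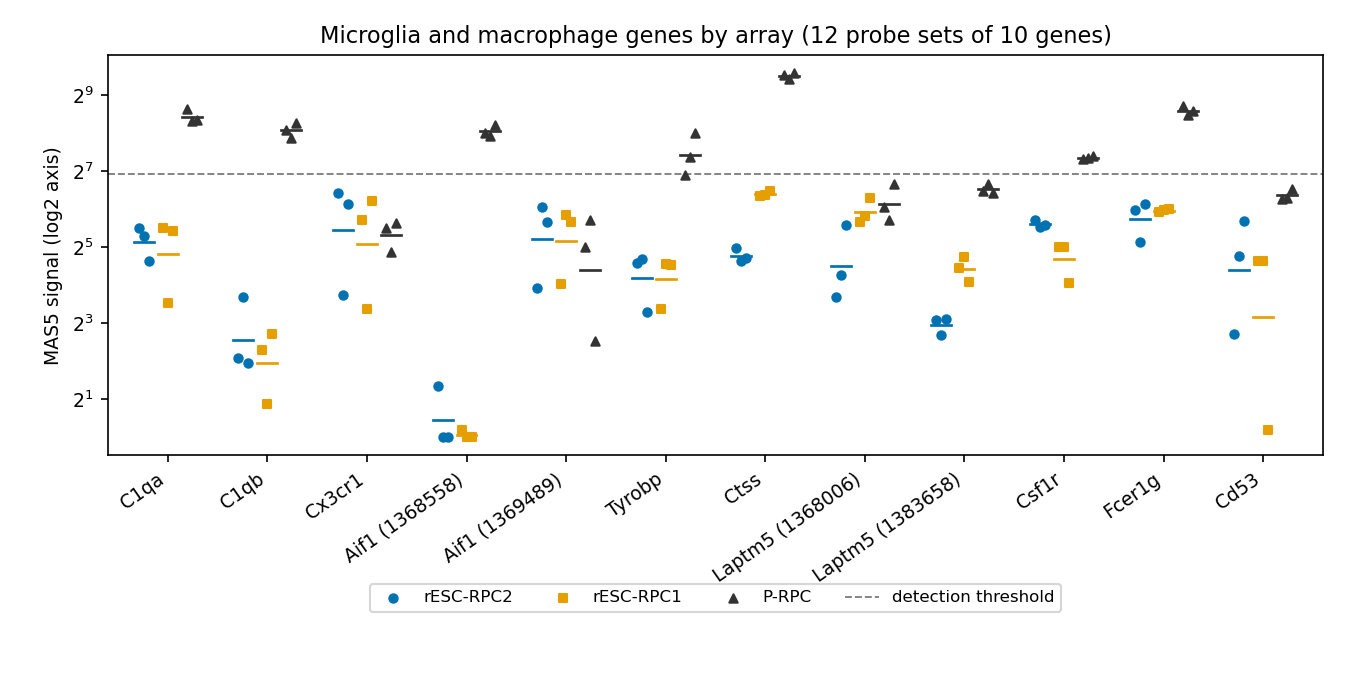
Signal of each of the 12 probe sets of the 10 genes on each of the 9 arrays, on a log2 axis. Each point is 1 array, a bar is the mean of the log2 values of a group, and the dashed line is the detection threshold of 123. The P-RPC points of C1qa, C1qb, 1 Aif1 probe set, Ctss, Csf1r and Fcer1g lie above the line, and no rESC-RPC2 or rESC-RPC1 point does.

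With no filter, so that all 10 members entered, 8 were called lower in rESC-RPC2 against P-RPC (all but Cx3cr1 and Cd53), where 11.4% of all 14217 genes were. Likewise 8 were called lower in rESC-RPC1 against P-RPC (all but Cx3cr1 and Laptm5), where 8.33% of all genes were. Members called higher numbered 0 in both comparisons, where 8.91% and 10.5% of all genes were. A gene with a probe set that passes the filter was still represented by that probe set. Aif1 thus kept the probe set that passed through P-RPC alone, and its call is a description. Its other probe set, brighter by the mean, had mean log2 signals of 5.22 in rESC-RPC2, 5.18 in rESC-RPC1 and 4.42 in P-RPC. Over the 10 genes the median log2 fold change was -3.04 for rESC-RPC2 and -3.16 for rESC-RPC1, beside medians of -0.031 and -0.0018 over all genes. With every signal under the threshold first raised to it, the median over the 10 genes was -0.81 in each comparison, and 3 genes had no difference left. Of the 12 probe sets, 10 had all rESC-RPC2 arrays under all P-RPC arrays, as did 25.7% of all probe sets. In rESC-RPC1 9 did, as did 24.8% of all probe sets, and the same 9 were under P-RPC in both, as were 16.8% of all. Members with all arrays above P-RPC numbered 0 in both, where 23.8% and 21.3% of all probe sets were.

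After the filter 6 members remained (C1qa, C1qb, Aif1, Ctss, Csf1r and Fcer1g). These 6 passed it only through the 3 P-RPC arrays, so each had to differ, and their count is a description. All 6 were called lower in rESC-RPC2, where 13% of the genes tested were, and in rESC-RPC1, where 9.56% were, each against P-RPC. Of all genes tested 7.08% were called lower in both. Both comparisons share the P-RPC arrays.

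The first group of members makes C1q, the molecule that starts the classical complement pathway and in the brain comes mainly from microglia. It has 3 chains, A, B and C, whose genes C1qa, C1qb and C1qc follow each other on rat chromosome 5. C1qa had signals of 45.2, 39.6 and 25.1 in rESC-RPC2, of 45.1, 11.6 and 43.1 in rESC-RPC1 and of 398, 324 and 325 in P-RPC. No array of either rESC-derived group came near the lowest P-RPC array. C1qa was lower than in P-RPC by at least 2.83-fold in rESC-RPC2 (adjusted p = 0.000218) and by at least 2.83-fold in rESC-RPC1 (adjusted p = 0.000126). C1qb had 4.24, 12.9 and 3.85 in rESC-RPC2, 4.92, 1.83 and 6.53 in rESC-RPC1 and 273, 237 and 311 in P-RPC. Again the groups did not overlap with P-RPC, and the signal was at the very bottom of the scale in both rESC-derived groups. The bound for C1qb was at least 2.22-fold lower in each (adjusted p = 0.000248 for rESC-RPC2 and 0.000134 for rESC-RPC1). C1qc, the remaining chain, had 25.4, 6.03 and 2.55 in rESC-RPC2, 28.4, 5.24 and 17.2 in rESC-RPC1 and 214, 201 and 219.9 in P-RPC. It was at least 1.72-fold lower in both (adjusted p = 0.000837 for rESC-RPC2 and 0.00326 for rESC-RPC1), so that all 3 chains fell.

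The proteases that C1q carries moved the other way. C1r had 396, 440.3 and 422 in rESC-RPC2, 1154, 1504 and 1009 in rESC-RPC1 and 92.2, 84.4 and 107 in P-RPC. The 3 groups did not overlap, and the order was rESC-RPC1, rESC-RPC2 and P-RPC from high to low. Against P-RPC, C1r was at least 3.42-fold higher in rESC-RPC2 (adjusted p = 1.42e-06) and at least 9.83-fold higher in rESC-RPC1 (adjusted p = 5.38e-08). C1s had 473, 629.5 and 483 in rESC-RPC2, 1135, 2059 and 923 in rESC-RPC1 and 134, 90.02 and 138 in P-RPC. Against P-RPC it was 4.41-fold higher in rESC-RPC2 (log2 fold change 2.14 ± 0.28 (SE), adjusted p = 7.64e-05) and 10.9-fold higher in rESC-RPC1 (3.44 ± 0.28, adjusted p = 3.09e-06). C1r and C1s are made by fibroblasts and many other cells, unlike C1q. Serping1, the inhibitor of both proteases, fell. It had 32.2, 3.01 and 22.5 in rESC-RPC2, 231, 169 and 176 in rESC-RPC1 and 673, 701 and 557 in P-RPC, and was lower than P-RPC in both (adjusted p = 5.2e-05 for rESC-RPC2 and 0.0486 for rESC-RPC1). The rESC-RPC1 call was close to the threshold of the test. Over the classical complement list as a whole, 8 of 15 genes on the array were tested. In each comparison with P-RPC 2 were higher (C1r and C1s), 4 lower (the C1q chains and Serping1) and 2 not called (Cfp and Cd55). Over all 9956 genes tested, 13% were lower in rESC-RPC2 and 9.56% in rESC-RPC1, and 1069 and 1192 genes were higher. The C1q chains passed the filter through the P-RPC arrays alone and C1r through rESC-derived arrays alone, so their calls are a description.

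**Figure D2:**
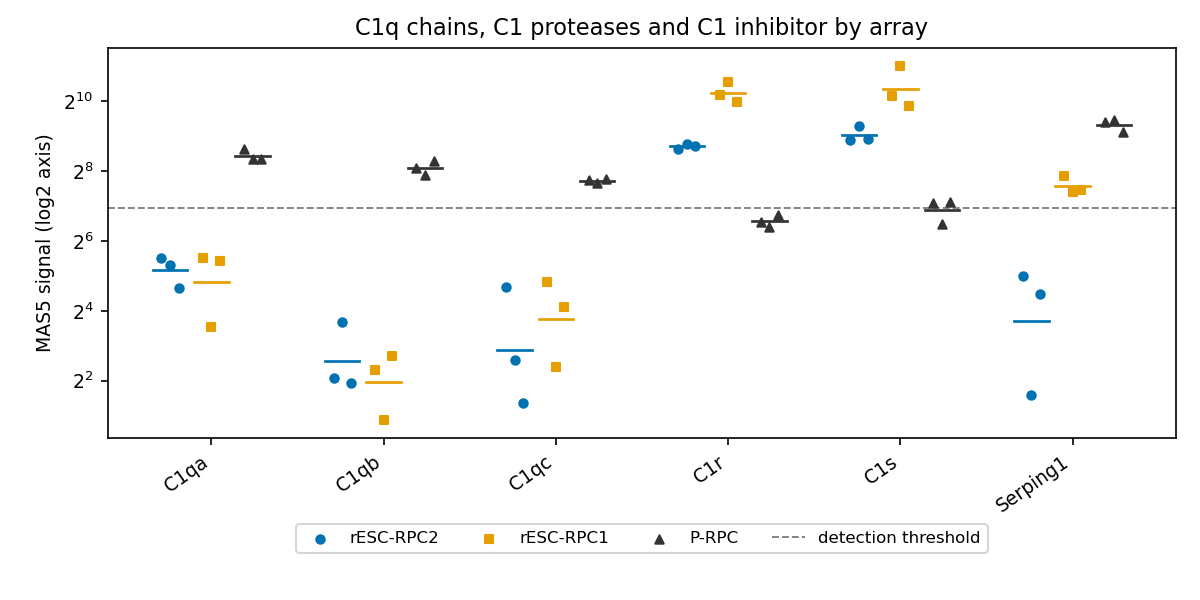
Signal of the C1q chains, the C1 proteases and the C1 inhibitor Serping1 on each of the 9 arrays, on a log2 axis, with 1 point per array, a bar at the mean of the log2 values and the detection threshold of 123 dashed. P-RPC lies above both rESC-derived groups for C1qa, C1qb, C1qc and Serping1 and below them for C1r and C1s.

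The next members are receptors. Csf1r is the receptor for the growth factors Csf1 and Il34, without which microglia do not survive. Its signals were 52.3, 46.5 and 48.2 in rESC-RPC2, 32.3, 32.2 and 16.6 in rESC-RPC1 and 159, 163 and 169.8 in P-RPC. The P-RPC arrays agreed within a coefficient of variation of 3.2% and lay just over the threshold, so the bound is small. Csf1r was lower than in P-RPC by at least 1.34-fold both in rESC-RPC2 (adjusted p = 0.00109) and in rESC-RPC1 (adjusted p = 6.99e-05). With signals raised to the threshold first, the log2 fold change was -0.42 in each and Csf1r was not called. Between the rESC-derived groups the arrays did not overlap, with rESC-RPC2 above rESC-RPC1, but the log2 fold change of 0.92 ± 0.34 (SE, adjusted p = 0.0439) was under the size needed for a call. It passed that size without rESC-RPC1 replicate 1 (1.08, adjusted p = 0.0453) or replicate 2 (1.08, adjusted p = 0.0341). Without rESC-RPC1 replicate 3 it was 0.60 (adjusted p = 0.115). All arrays of both rESC-derived groups were under the threshold, and with signals raised to it no difference between them was left.

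Cx3cr1, the fractalkine receptor by which microglia are often marked, was not seen in any group. It had 86.9, 13.4 and 70.9 in rESC-RPC2, 52.3, 10.3 and 74.2 in rESC-RPC1 and 45.3, 29.3 and 49.6 in P-RPC. All 9 arrays were under the threshold and the groups overlapped throughout, so no fold is given. Here the P-RPC arrays go against the label of the set: a gene that defines microglia could not be told from background in the group in which 7 other members were seen. Further defining genes, chosen after their values were seen, were also under the threshold on every P-RPC array: Itgam (a chain of the integrin CD11b), Itgb2 (its partner chain), Cd68 (a lysosomal glycoprotein of macrophages), Trem2 (a lipid receptor) and Tmem119. Unlike those of Cx3cr1, the P-RPC signals of Itgb2, Cd68 and both Trem2 probe sets lay above every rESC-derived array. With no filter Trem2 was called lower in both (adjusted p = 0.0286 for rESC-RPC2 and 0.00208 for rESC-RPC1) and Cd68 in rESC-RPC1 (adjusted p = 0.0401). Of all probe sets, 25.7% had every rESC-RPC2 array under every P-RPC array, and 24.8% had every rESC-RPC1 array under them. Of 62 probe sets of further genes named for microglia, 37 and 31 did. In 5 and 10 of the 62 every array lay above P-RPC, as in 23.8% and 21.3% of all.

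P2ry12, the ADP receptor that steers microglial processes, is a receptor outside the set that was seen in P-RPC. The probe set tested had 14.9, 21.1 and 18.1 in rESC-RPC2, 29.3, 37.8 and 27.6 in rESC-RPC1 and 376, 348 and 349.6 in P-RPC, and it was at least 2.92-fold lower in both (adjusted p = 9.43e-07 for rESC-RPC2 and 4.54e-06 for rESC-RPC1). A further P2ry12 probe set was under the threshold in all groups but also lower in both, without overlap, with 8.34 to 13.4 in rESC-RPC2, 2.1 to 17.9 in rESC-RPC1 and 47.5 to 66.0 in P-RPC.

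Most ligands of microglial receptors were not lower than in P-RPC. Cx3cl1, fractalkine itself, had 452, 406 and 389 in rESC-RPC2, 683, 519.6 and 511 in rESC-RPC1 and 41.9, 81.2 and 48.6 in P-RPC. Against P-RPC it was at least 3.38-fold higher in rESC-RPC2 (adjusted p = 2.59e-06) and at least 4.62-fold higher in rESC-RPC1 (adjusted p = 1.06e-06), while its receptor Cx3cr1 was under the threshold everywhere. Cx3cl1 passed the filter through rESC-derived arrays alone, so it had to differ, and its calls are a description. For Csf1 the probe sets disagreed. The one tested, with the highest mean, had 619, 530.4 and 579 in rESC-RPC2, 422, 480.4 and 529 in rESC-RPC1 and 542, 507 and 573 in P-RPC, and was not called (log2 fold change 0.09 ± 0.12 for rESC-RPC2 and -0.18 ± 0.12 for rESC-RPC1, SE). Another had 521, 403 and 413 in rESC-RPC2, 279.6, 171 and 401 in rESC-RPC1 and 29.8, 47.3 and 32.0 in P-RPC, with both rESC-derived groups above P-RPC. Both remaining Csf1 probe sets also had higher signals in every rESC-derived array than in any P-RPC array. Il34 was under the threshold in all groups.

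Of the other ligands, Cd200 (which restrains myeloid cells through its receptor) had 2641, 3075 and 3139 in rESC-RPC2, 1109, 1351 and 1204 in rESC-RPC1 and 838, 921 and 697 in P-RPC. In rESC-RPC2 it was 3.62-fold above P-RPC (log2 fold change 1.86 ± 0.12, SE, adjusted p = 6.97e-07) and was not called in rESC-RPC1 (0.58 ± 0.12). Gas6 and Pros1, which bridge dying cells to phagocyte receptors of the Axl and Mertk family, were called above P-RPC in rESC-RPC1, by 3.89-fold and 6.14-fold, and were not called in rESC-RPC2. Clu (clusterin) was 10.02-fold higher in rESC-RPC1 and not called in rESC-RPC2. Apoe, a lipid carrier, was lower in rESC-RPC2, with 67.1, 157 and 106 against 599, 548 and 619.6 in P-RPC (adjusted p = 8.65e-05), and was not called in rESC-RPC1, where it had 978, 1396 and 588. Against P-RPC, 11 ligand genes were tested: rESC-RPC2 had 2 above it, 1 under it and 8 with no call, and rESC-RPC1 had 4, 0 and 7. Of all 9956 genes tested, 1069 were above P-RPC and 1292 under it in rESC-RPC2, and 1192 and 952 in rESC-RPC1. Cd47, Tgfb2, Cxcl12 and Mif were called in neither.

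**Figure D3:**
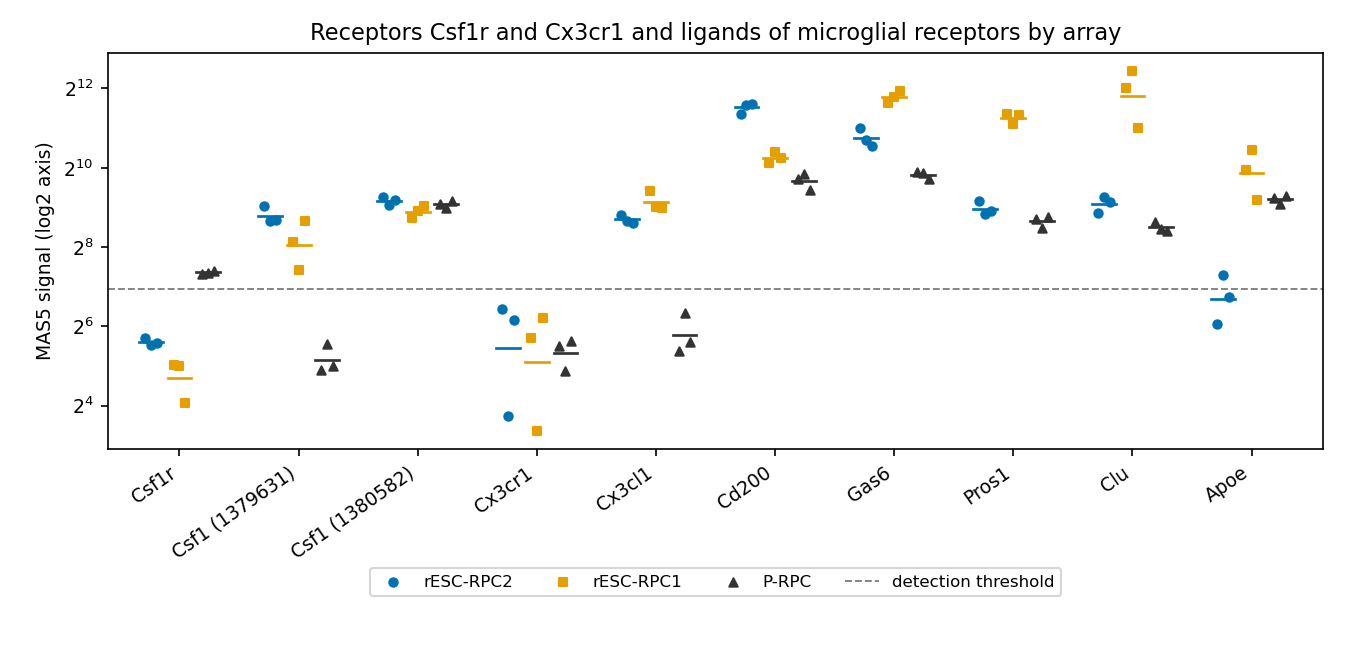
Signal of the receptors Csf1r and Cx3cr1 and of ligands of microglial receptors on each of the 9 arrays, on a log2 axis, with 1 point per array, a bar at the mean of the log2 values and the detection threshold of 123 dashed. Csf1r is above the line in P-RPC only, Cx3cr1 in no group, and Cx3cl1 in both rESC-derived groups and not in P-RPC; 2 of the 4 Csf1 probe sets are drawn.

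Tyrobp (DAP12) and Fcer1g are small membrane adaptors with which many myeloid receptors signal to the kinase Syk. Fcer1g, the common gamma chain of Fc receptors, had 63.1, 35.1 and 70.4 in rESC-RPC2, 60.6, 62.9 and 64.3 in rESC-RPC1 and 421, 356 and 386 in P-RPC. The groups did not overlap with P-RPC, and the P-RPC arrays varied by 8.48%. Relative to P-RPC the decrease was at least 3.15-fold both in rESC-RPC2 (adjusted p = 7.82e-06) and in rESC-RPC1 (adjusted p = 1.52e-05). Tyrobp had 23.9, 25.8 and 9.89 in rESC-RPC2, 10.5, 23.8 and 23.2 in rESC-RPC1 and 119, 166 and 257 in P-RPC. Its P-RPC signals varied by 38.9%, and 1 of them was under the threshold, so that Tyrobp failed the filter by 1 array. Every rESC-derived array was nevertheless under every P-RPC array, and with no filter Tyrobp was called lower in both (adjusted p = 0.000427 for rESC-RPC2 and 0.000446 for rESC-RPC1, at least 1.40-fold in each).

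Below these adaptors, 8 of 17 pathway genes on the array were tested. Against P-RPC, rESC-RPC2 had 1 higher, 2 lower and 5 with no call, and rESC-RPC1 had 0, 2 and 6. Among all 9956 genes tested, 1069 were higher and 1292 lower in rESC-RPC2, and 1192 higher and 952 lower in rESC-RPC1. Lower in both were Rac2, a small GTPase of blood cells, and Pik3ap1, which couples receptors to PI3-kinase. Rac2 had 8.55 to 29.0 in rESC-RPC2, 5.13 to 43.2 in rESC-RPC1 and 155, 155 and 184 in P-RPC, at least 1.34-fold lower in each (adjusted p = 0.00473 for rESC-RPC2 and 0.00469 for rESC-RPC1). Pik3ap1 had 53.3 to 93.4 in rESC-RPC2, 28.8 to 43.8 in rESC-RPC1 and 186 to 230.5 in P-RPC, at least 1.70-fold lower in each. Rac2 and Pik3ap1 passed the filter through the P-RPC arrays alone, so their lower calls are a description. Coro1a, an actin-binding protein of blood cells and neurons, was higher in rESC-RPC2, with 560.1, 396 and 587 against 178, 308 and 218 in P-RPC (2.22-fold, adjusted p = 0.00165), and was not called in rESC-RPC1. Syk was under the threshold in all groups.

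Aif1 encodes Iba1, the calcium-binding protein whose antibody is the usual stain for microglia. Its probe sets did not behave alike. The one tested, of a type that can match several transcripts, had 2.57, 1 and 1 in rESC-RPC2, 1.14, 1 and 1 in rESC-RPC1 and 256, 246 and 297 in P-RPC, where 1 is the floor to which lower signals were set. It was at least 2.17-fold lower in each (adjusted p = 0.00183 for rESC-RPC2 and 0.00146 for rESC-RPC1). The fitted log2 fold changes, -7.60 ± 1.59 and -7.99 ± 1.59 (SE), rest on this floor. The remaining Aif1 probe set had 15.3, 66.5 and 50.6 in rESC-RPC2, 16.3, 57.6 and 50.6 in rESC-RPC1 and 32.2, 52.3 and 5.76 in P-RPC, under the threshold on all 9 arrays and with overlapping groups.

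Laptm5 and Cd53 are membrane proteins of blood cells, Laptm5 in lysosomes and Cd53 a tetraspanin of the cell surface. Both were under the threshold on every array, so no fold is given. Laptm5 had 8.49, 6.47 and 8.63 in rESC-RPC2, 21.9, 26.7 and 17.0 in rESC-RPC1 and 89.5, 102 and 86.8 in P-RPC with one probe set, which did not overlap between any pair of groups. With the other it had 12.9, 19.5 and 48.0 in rESC-RPC2, 50.7, 56.9 and 78.5 in rESC-RPC1 and 66.6, 53.1 and 102 in P-RPC, where rESC-RPC1 and P-RPC overlapped. Cd53 had 6.56, 27.1 and 52.2 in rESC-RPC2, 24.9, 25.2 and 1.14 in rESC-RPC1 and 77.4, 78.7 and 93.7 in P-RPC. All P-RPC arrays were above all others, at a level that the threshold counts as background.

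Ctss, cathepsin S, is a lysosomal protease of antigen-presenting cells that varied little between arrays of a group, by 5.36% in P-RPC. It had 31.5, 25.1 and 26.5 in rESC-RPC2, 81.7, 83.4 and 90.02 in rESC-RPC1 and 743, 689 and 766 in P-RPC. The 3 groups did not overlap. Ctss was lower than in P-RPC by at least 5.97-fold both in rESC-RPC2 (adjusted p = 2.3e-08) and in rESC-RPC1 (adjusted p = 3.57e-07). It was also the 1 member of the 6 tested that was called between the rESC-derived groups, with rESC-RPC2 under rESC-RPC1 (log2 difference -1.62 ± 0.18, SE, adjusted p = 5.86e-05), where 9.25% of all genes tested were called lower. With no filter Laptm5 was called lower as well, so 2 of the 10 members were, beside 8.17% of all genes. Both groups were under the threshold for Ctss, so no fold is given. With signals raised to the threshold first, their difference was 0. Of the 12 probe sets, 3 had all rESC-RPC2 arrays under all rESC-RPC1 arrays (that of Ctss and both of Laptm5), as did 18.6% of all probe sets, and 1 (Csf1r) had them above, as did 18% of all.

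Most other lysosomal genes were not lower than in P-RPC. Of 23 tested against P-RPC, rESC-RPC2 had 0 higher, 3 lower (Ctss, Ctsh and Gusb) and 20 with no call, with a median log2 fold change of -0.15. For rESC-RPC1 these counts were 10, 1 and 12, with a median of 0.85 and with Ctss as the gene that was lower. Among those higher in rESC-RPC1, the protease Ctsc had 4819.6, 4761 and 4681 against 336, 306 and 344 in P-RPC (14.5-fold, adjusted p = 2.72e-08), and 249.5, 365 and 237 in rESC-RPC2, where it was not called. Hexa, a subunit of hexosaminidase, was 3.31-fold above P-RPC in rESC-RPC1, and Npc2, which carries cholesterol, 3.49-fold. Between the rESC-derived groups, 14 of the 23 were lower in rESC-RPC2, Ctss among them, 0 higher and 9 not called. Of all 9956 genes tested, 9.25% were lower between these groups. Against P-RPC, 13% were lower in rESC-RPC2 and 9.56% in rESC-RPC1, and 1192 genes were higher in rESC-RPC1.

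**Figure D4:**
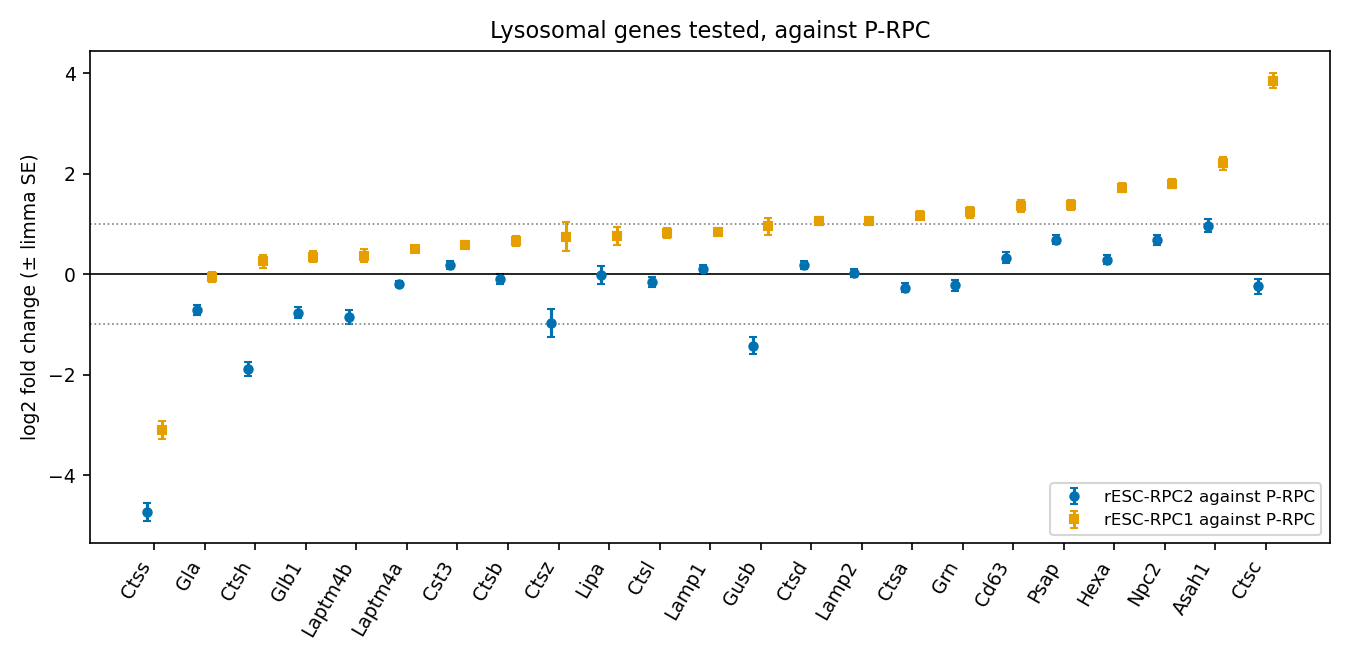
Log2 fold changes against P-RPC for the 23 lysosomal genes tested, in rESC-RPC2 and in rESC-RPC1, with bars of ± 1 SE from limma, dotted lines at the size needed for a call and genes in the order of the rESC-RPC1 values. Ctss lies far under 0 in both comparisons (-4.73 and -3.11), and 10 genes were called higher in rESC-RPC1.

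Beyond the set, 49 further genes named for microglia were on the array, and 17 were tested. Against P-RPC, rESC-RPC2 had 10 lower, 4 higher and 3 with no call, and rESC-RPC1 had 5, 6 and 6. With no filter, 24 of the 49 were lower and 4 higher in rESC-RPC2, and 16 lower and 6 higher in rESC-RPC1. With every signal under the threshold first raised to it, the median difference over the 49 was 0 in each comparison. No difference was then left for 27 of them in rESC-RPC2 and for 26 in rESC-RPC1. Of all genes, 11.4% were lower and 8.91% higher in rESC-RPC2, and 8.33% and 10.5% in rESC-RPC1. Lower in both after the filter were P2ry12, C1qc, Mpeg1 (perforin-2, a pore-forming protein of macrophages), Lyz2 (lysozyme) and Blnk (an adaptor of B cells and myeloid cells). Mpeg1 had 4.4 to 31.3 in rESC-RPC2, 3.99 to 79.1 in rESC-RPC1 and 237 to 289 in P-RPC, and Lyz2 had 49.5 to 104, 39.0 to 98.1 and 270.3 to 332 in the same order. Neither overlapped with P-RPC. All 5 passed the filter through the P-RPC arrays alone, as did Rac2, Pik3ap1, Mrc1, Lyve1 and Pf4, so that they, like the members, had to differ, and their calls are a description.

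The genes higher in both were Sall1, Runx1, Rnase4 and Vsir, all of them known from other cell types too. Sall1, a transcription factor of microglia and also of neural and kidney progenitors, had 452, 513 and 369 in rESC-RPC2, 669.8, 704 and 567 in rESC-RPC1 and 102, 96.8 and 81.7 in P-RPC. It was at least 3.60-fold higher in rESC-RPC2 (adjusted p = 1.06e-06) and at least 5.25-fold higher in rESC-RPC1 (adjusted p = 2.81e-07). Runx1, a factor of blood cells and of several epithelia and neurons, had 378, 260.0 and 282 in rESC-RPC2, 2283, 808 and 3654 in rESC-RPC1 and 95.9, 51.1 and 98.4 in P-RPC. The rESC-RPC1 arrays differed widely among themselves, and all were above both other groups. The P-RPC arrays of Sall1 and Runx1 were all under the threshold, as were those of C1r and Cx3cl1 above. These genes passed the filter through rESC-derived arrays alone, so their higher calls, like the lower calls of the members, are a description. Cyba, a subunit of the NADPH oxidase of phagocytes that other cells make too, had 562, 466 and 505 in rESC-RPC2, 930.2, 854 and 1244 in rESC-RPC1 and 488, 448 and 514 in P-RPC. It was called higher in rESC-RPC1 (2.07-fold, adjusted p = 0.000129) and not called in rESC-RPC2. Cd14, the co-receptor for bacterial lipopolysaccharide, was higher than P-RPC in rESC-RPC1 alone by these calls, with 205, 146 and 280.4 against 39.2, 23.0 and 31.5 in P-RPC. In rESC-RPC2 it had 18.4, 47.4 and 43.0, and the difference between the rESC-derived groups was itself called (log2 fold change -2.60 ± 0.44, SE, adjusted p = 0.000769). Cd14 passed the filter through its rESC-RPC1 arrays alone, so it had to differ, and both calls are a description. With signals raised to the threshold first, Cd14 was called in neither comparison.

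**Figure D5:**
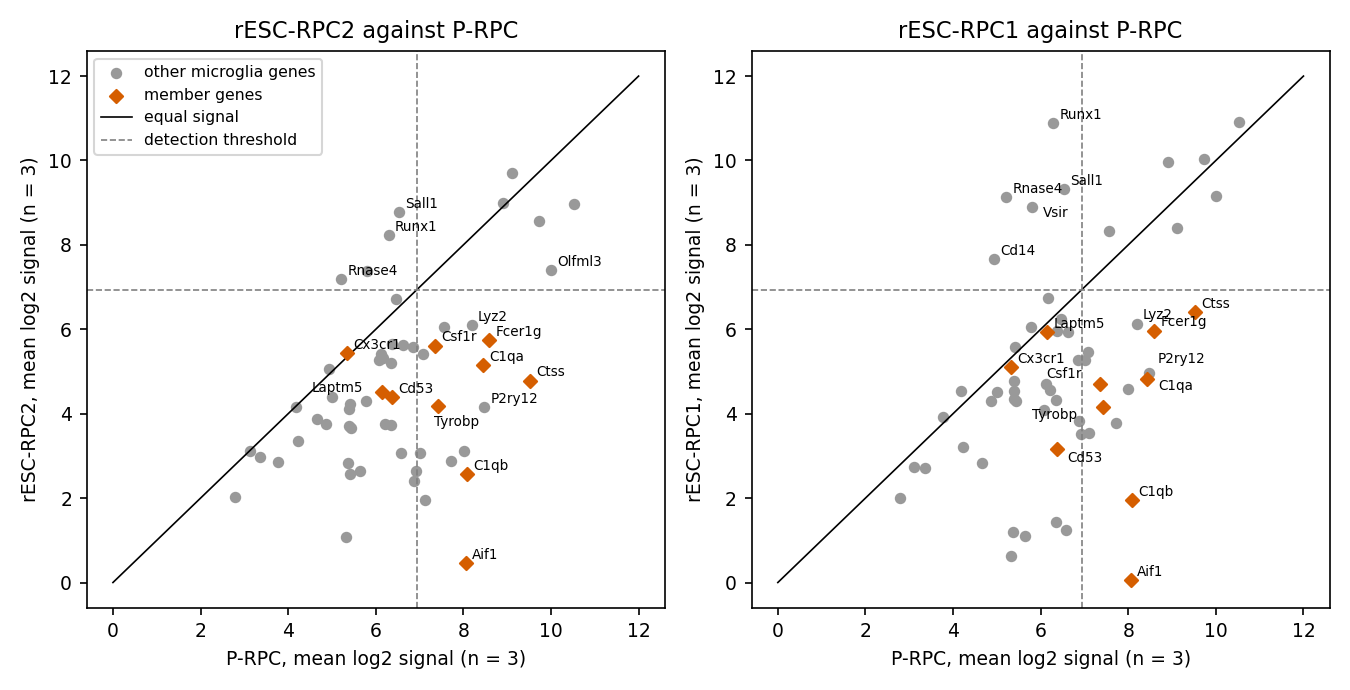
Mean log2 signal over 3 arrays in rESC-RPC2 (left) and in rESC-RPC1 (right), plotted against that in P-RPC, for the 10 member genes and the 49 further microglia genes, with a line of equal signal and the detection threshold (log2 6.94) dashed. Member genes lie on or below the line of equal signal, except Cx3cr1 in rESC-RPC2, and Sall1, Runx1 and Rnase4 lie above it in both panels.

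Genes of macrophages at the borders of the nervous system moved like the set in part. Of 6 tested, Mrc1 (the mannose receptor), Lyve1 (a hyaluronan receptor) and Pf4 were lower in both. Lyve1 had 1 to 25.9 in rESC-RPC2, 1.29 to 10.04 in rESC-RPC1 and 398 to 475 in P-RPC, at least 3.46-fold lower in each (adjusted p = 0.0013 for rESC-RPC2 and 0.000775 for rESC-RPC1). Lyve1 also marks lymphatic vessels, and Pf4 platelets. Maf, a transcription factor of macrophages and also of lens and neurons, moved the other way. It had 4075, 5717 and 4825 in rESC-RPC2, 3125, 3674 and 2803 in rESC-RPC1 and 1913, 816 and 784 in P-RPC, with the highest P-RPC signal on the array with lens genes. It was called higher in both (4.51-fold in rESC-RPC2, adjusted p = 9.38e-05, and 2.97-fold in rESC-RPC1, adjusted p = 0.000917), and Gas6, named above, was higher in rESC-RPC1. Of 13 genes of activated microglia, 3 were lower (Lpl, Gpnmb and Apoe), 3 higher (Lgals3, Fabp5 and Axl) and 7 had no call in rESC-RPC2 against P-RPC. In rESC-RPC1 1 was lower (Lpl), 6 were higher (Spp1, Lgals3, Cd9, Cd63, Ctsd and Axl) and 6 had no call. Among class II antigen presentation genes, Cd83 and RT1-DMb were lower and RT1-Db1 higher in both, out of 4 tested. Cd74, the invariant chain, was under the threshold on every array. Beside the counts of these lists, 1292 of all 9956 genes tested were lower and 1069 higher in rESC-RPC2, and 952 and 1192 in rESC-RPC1.

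Markers of other cells that the newborn tissue could hold were measured beside the set. Red cell and platelet genes summed to 171 to 243 in rESC-RPC2, 244 to 393 in rESC-RPC1 and 14513 to 15592 in P-RPC, nearly all from the beta globin Hbb, with 14140, 13868 and 15033 in P-RPC. Endothelial genes summed to 424 to 521 in rESC-RPC2, 785 to 1450 in rESC-RPC1 and 7086 to 7496 in P-RPC, nearly all from the VEGF receptor Kdr, which retinal progenitors express too. Of 13 granulocyte and mast cell genes on the array 0 were tested, and of 16 T and B cell genes 1 was (Lck, called in neither comparison with P-RPC). Their sums were 182 to 259 in rESC-RPC2, 232 to 311 in rESC-RPC1 and 338 to 401 in P-RPC for granulocytes and mast cells. For T and B cells they were 477 to 660, 451 to 516 and 528 to 631 in the same order. The retina's own genes moved with the set. With no filter, 11 of 12 genes of retinal progenitors and neurons were called lower in rESC-RPC2 and 11 in rESC-RPC1, beside 11.4% and 8.33% of all genes. The median log2 fold changes of these 12 genes on the array were -4.34 and -3.71. Those with the smallest adjusted p were the transcription factors Neurod1, Prdm1, Tfap2b and Pax6. Neurod1 had 82.5 to 104 in rESC-RPC2, 75.5 to 138 in rESC-RPC1 and 12941 to 14009 in P-RPC. With no filter, lens genes were called lower as well, 10 of 17 in rESC-RPC2 and 9 of 17 in rESC-RPC1. Among them the crystallin genes Cryba1 and Crybb3 had 202 to 28340.2 and 405 to 19957 in P-RPC, highest on replicate 1, and were under the threshold on every rESC-derived array. The part of these other cells in the signals of the set was not tested.

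The 10 genes outside all lists whose pattern over the 9 arrays was most like the mean log2 signal of the members had Pearson's r from 0.994 to 0.998. They were Cdh20, Fancb, Dapl1, Aipl1, Supt16h, Gxylt1, Ttr, Hkdc1, Col9a1 and Emid1, all with higher signals in every P-RPC array than in any rESC-derived array. Aipl1, which photoreceptors need, had 26.4 to 36.7 in rESC-RPC2, 15.4 to 34.3 in rESC-RPC1 and 1125 to 1295 in P-RPC. In all, 423 of 9854 genes had an r over 0.95, so the pattern of the set was shared with many genes that separate P-RPC from the rest.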

How the data were processed

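RNA of 3 rESC-RPC2, 3 rESC-RPC1 and 3 P-RPC samples was labelled and hybridized to Affymetrix Rat Genome 230 2.0 arrays. The deposited values are linear intensities, 1 for each probe set: MAS 5.0 signals that the authors computed from background-corrected scans with Gene Spring (MAS5 per the labels, with no version). The mean signal after trimming 2% from each end was 500.2 on all 9 arrays, and the medians were 113 to 128. No rescaling was applied. The log2 was taken after values under 1 had been set to 1.

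Of 31099 probe sets 57 controls were left out. By the platform annotation, 20826 of the rest had 1 gene symbol, 436 several and 9780 none, and the last 2 kinds named no gene. The Entrez ID of 20758 was found in RefSeq, with 0 symbols updated. A probe set was kept when at least 3 of 9 arrays, whichever they were, reached the 50th percentile of all values (123). This left 17048 probe sets and 9956 genes, where a gene stands for its brightest kept probe set by the mean. In the fit with no filter, a probe set that passes the filter was still taken first. R 4.3.3 and limma 3.58.1 were used (lmFit, and eBayes with a variance trend), with 1 mean per group over all 9 arrays, no covariate, and Benjamini-Hochberg adjustment over all genes tested. A lower bound of a fold is the mean log2 signal of the brighter group less the mean, in the dimmer group, of the higher of the threshold and the signal. No detection call, scan date or batch was used here, and for arrays their number limits the precision. The samples are labelled as independent biological repeats, but all rESC-derived samples share 1 cell line, so p-values measure the spread between these samples. The script was tested on simulated arrays for rESC-RPC1 against P-RPC. Among 9956 genes it recovered 92% of those with a log2 change of 1.5 and 100% at a change of 3 (200 genes in all), and made 1 false call among 9756.

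The members, the gene lists, the tests and the alternatives were chosen with earlier results of these data known. Named are all members, from each list up to 4 called genes with the smallest adjusted p against P-RPC, those other microglia and ligand genes that reached the threshold on all 3 arrays of a rESC-derived group, and the 10 genes outside the lists most like the members. Some further genes (Itgam, Itgb2, Cd68, Trem2, Tmem119, Cd74, Syk, Il34, and list genes given beside a count) were chosen after their values were seen. Spi1, which encodes PU.1, and 10 more of the 60 listed microglia genes had no probe set with a single symbol and were not analysed here. Alternatives were other scalings, filters, thresholds, summaries of probe sets, tests (among them the methods' t-test) and left-out arrays.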

Additional observations from a re-analysis of the deposited data

Results flagged for a closer look

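The results listed here are genes whose distance from P-RPC differed between rESC-RPC2 and rESC-RPC1, by limma's test of rESC-RPC2 against rESC-RPC1 itself. The values are log2 fold changes of rESC-RPC2 over rESC-RPC1, and their causes were not tested.

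Among the 10 member genes this held for Ctss (cathepsin S), at -1.62 (adjusted p = 5.86e-05), with all arrays of both groups under the detection threshold. Among complement genes it held for C1r at -1.52 (adjusted p = 3.68e-05), C1s at -1.30 (adjusted p = 0.00314) and their inhibitor Serping1 at -3.88 (adjusted p = 0.00109). For Serping1 all rESC-RPC2 arrays were under the threshold, so the size of its value depends on signals near the background.

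Of the further microglia genes, Lgmn (a lysosomal protease) was at -1.96, Unc93b1 (a chaperone of endosomal receptors) at -2.28, Cd48 at -1.49, Vsir at -1.53 and Rnase4 at -1.95. Cd14 was at -2.60, Runx1 at -2.64 and Olfml3 at -1.77. For Cd14 all rESC-RPC2 arrays were under the threshold, so the size of its value depends on signals near the background. Rgs10, a regulator of G protein signals, was higher in rESC-RPC2, at 1.29 (adjusted p = 7.28e-05).

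Of the ligands, Apoe was at -3.16, Clu at -2.74, Pros1 at -2.30 and Gas6 at -1.05, while Cd200 was at 1.27 (adjusted p = 2.37e-05). In the pathway below the adaptors, Coro1a was at 1.62 (adjusted p = 0.000305). Of the lysosomal and activation genes, Ctsc was at -4.09 (adjusted p = 1.75e-07), Cd9 at -2.09, Hexa at -1.43, Axl at -1.28, Npc2 at -1.12 and Cd63 at -1.03. Cd83 was at -1.49 and the endothelial gene Kdr at -2.27.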

How the results depend on the processing

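In 26 other settings, 392 of 399 log2 fold changes of members kept their call or their lack of one. A change of sign with no call in either fit was counted as kept. For C1qa between the rESC-derived groups, 0.33 became -0.31 without rESC-RPC1 replicate 2. Members that a filter removed were left out of the 399. Of 156 counts of called genes, 126 stayed within 1.5 times. The main counts of called members were 6, 6 and 1 for rESC-RPC2 against P-RPC, rESC-RPC1 against P-RPC and rESC-RPC2 against rESC-RPC1, and those of further microglia genes 14, 11 and 10. With no filter the further genes called were 28 and 22 against P-RPC, and 2 members (Ctss and Laptm5) were called between the rESC-derived groups. A filter at the 75th percentile (571) left 1 member, Ctss, called in each comparison with P-RPC, and 4, 2 and 5 further genes. With signals raised to the threshold, members called were 5 and 5 against P-RPC (Csf1r was lost) and 0 between the rESC-derived groups, and 8 further genes were called in rESC-RPC2 against P-RPC. At a fold of at least 4, members called between the rESC-derived groups were 0, and further genes 8 in rESC-RPC2 against P-RPC and 4 between the rESC-derived groups.

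Leaving out 1 array at a time gave 0 to 6, 0 to 6 and 0 to 2 members and 8 to 14, 5 to 12 and 9 to 11 further genes. The counts of 0 came with a P-RPC array left out, when genes seen in P-RPC alone could not reach 3 arrays by construction. In an alternative chosen after seeing the data, which kept the genes of the full filter, leaving out each P-RPC array gave 6, 6 and 1 members and 14, 9 to 11 and 9 further genes. The counts of 2 came without rESC-RPC1 replicate 1 or replicate 2, when Csf1r was called higher in rESC-RPC2. With the replicate number as a block, members called were 6, 6 and 1 and further genes 14, 11 and 10, and the block changed no call of a member. No pairing by number was seen: deviations of arrays of the same number correlated at -0.04 to 0.27, over 0.1 in 1 of 9 pairs. Those of arrays of unlike numbers correlated at -0.30 to 0.31. Whether samples were paired in another way was not tested. The methods' t-test gave 6, 6 and 1 members and 14, 11 and 9 further genes at its own threshold, and 6, 6 and 1 and 14, 10 and 7 after Benjamini-Hochberg adjustment. Signals under the threshold limit what can be said: by how much the rESC-derived groups differ from each other in a member (Ctss, though called, lay under the threshold in both), and by how much each member is lower than in P-RPC beyond the bounds, was not measurable. Another scaling between arrays moved the median of all genes by less than 0.1 on the log2 scale and turned no member's direction against P-RPC.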
